A study of Homo sapiens with 12 samples.

Results

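The MYC and MAX network was followed through 10 genes, the MYC paralogs MYCN and MYCL, their partner MAX, the antagonists MXD1, MXD3, MXD4, MXI1, MNT and MGA, and the MAX-like factor MLX. The genes were taken by name and not by a cut on measured values, though earlier results of these data were known. All 10 were found among the 60623 genes of the deposited count table. RNA was sequenced in 12 libraries of 2 established human colon cancer lines, to look for expression changes after HKDC1 overexpression that could bear on proliferation. COLO320DM is a poorly differentiated line known for MYC amplification, and SW480 comes from a primary colon adenocarcinoma. HKDC1 encodes a hexokinase family member, from the enzymes that phosphorylate glucose on entry to glycolysis.

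Each line received 10 µg of pCMV6-HKDC1, an expression plasmid, or of pCMV6-Entry, the empty vector in a lipid reagent, and the medium was replaced after 24 h. There were 3 libraries in each of the 4 groups, COLO320DM with pCMV6-Entry, COLO320DM with pCMV6-HKDC1, SW480 with pCMV6-Entry and SW480 with pCMV6-HKDC1. All cells were thus transfected, and no untransfected cells were analysed here. The labels give neither the share of cells that took up plasmid nor whether replicates were grown separately, and a p-value here speaks only of the scatter among these libraries, which may be technical. Each line is 1 cell line, so a difference between them describes these lines only. In bulk RNA, fewer cells of a kind and less RNA per cell cannot be told apart.

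MYC, MYCN and MYCL are basic helix-loop-helix leucine zipper proteins that bind E-box DNA, with CACGTG as the best known form, as dimers with MAX. MXD1, MXI1, MXD3, MXD4 and MNT dimerise with MAX as well, bind the same sites and recruit the SIN3 and histone deacetylase corepressor, while MGA joins MAX in a Polycomb complex known as PRC1.6. MLX is a second hub, which pairs with the glucose-responsive factors MLXIP (MondoA) and MLXIPL (ChREBP) and also with MNT, MXD1 and MXD4.

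The E-box itself was looked for in the members' promoters, since these genes code for its readers and some are known to be wired to each other. RefSeq (GRCh38.p14) gave 15 start-site windows for the 10 members, each reaching from 250 bases before the start to 50 after it. CACGTG, which reads the same on both strands, was present in 3 of these 15 windows, those of MXD4, MNT and MLX, and in 7.26% of all 35116 RefSeq windows of 300 bases. The stretches upstream of the deposited first exons are shown because MXD4 was the member that differed most between the lines and MLX is the hub whose targets were followed below. Capitals mark CACGTG, and each is written 5′ to 3′ on the gene's strand.
MXD4, chr4:2262110-2262359, minus strand: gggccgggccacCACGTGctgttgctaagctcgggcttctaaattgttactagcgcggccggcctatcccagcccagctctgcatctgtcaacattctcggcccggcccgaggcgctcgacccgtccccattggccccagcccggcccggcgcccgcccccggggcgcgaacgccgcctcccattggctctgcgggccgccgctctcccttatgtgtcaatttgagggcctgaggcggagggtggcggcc
MNT, chr17:2401105-2401310, minus strand: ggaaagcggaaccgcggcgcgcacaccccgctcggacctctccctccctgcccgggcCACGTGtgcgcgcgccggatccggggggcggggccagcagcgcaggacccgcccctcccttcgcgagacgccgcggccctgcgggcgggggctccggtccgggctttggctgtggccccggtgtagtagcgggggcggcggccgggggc
MLX, chr17:42566850-42567067, plus strand: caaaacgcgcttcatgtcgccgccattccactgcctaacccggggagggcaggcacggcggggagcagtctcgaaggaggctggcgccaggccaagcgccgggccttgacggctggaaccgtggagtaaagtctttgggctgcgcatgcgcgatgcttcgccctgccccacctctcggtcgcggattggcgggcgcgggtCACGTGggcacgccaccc

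A paired motif that MLX with MLXIP or MLXIPL is known to bind, searched on both strands as CACGNNNNNNNCACG, was in none of the 15 member windows and in 0.609% of all windows. It was found upstream of TXNIP, a glucose-responsive target of these dimers that slows glucose uptake. ARRDC4, a relative of TXNIP and also a MondoA target, held CACGTG instead. Both upstream stretches are shown because TXNIP and ARRDC4 are the readouts of MLX used below, with the motif in capitals. A match describes the letters of a window and not binding.
TXNIP, chr1:145996580-145996829, minus strand: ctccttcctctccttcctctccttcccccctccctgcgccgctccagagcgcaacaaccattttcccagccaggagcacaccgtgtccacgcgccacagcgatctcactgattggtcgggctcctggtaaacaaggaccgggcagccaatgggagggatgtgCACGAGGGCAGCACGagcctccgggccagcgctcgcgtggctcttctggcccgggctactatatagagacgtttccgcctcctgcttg
ARRDC4, chr15:97960453-97960702, plus strand: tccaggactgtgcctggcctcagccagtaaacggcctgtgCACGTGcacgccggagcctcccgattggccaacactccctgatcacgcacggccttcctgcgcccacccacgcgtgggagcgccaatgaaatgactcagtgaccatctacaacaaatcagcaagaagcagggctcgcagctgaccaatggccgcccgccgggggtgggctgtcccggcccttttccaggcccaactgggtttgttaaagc

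The libraries held 33790733 to 45451279 counts. HKDC1 had 0 to 1 counts in COLO320DM and 1275 to 1549 in SW480 with empty vector, against 269799 to 333102 and 477515 to 499910 with its plasmid, so all 12 labels matched. The libraries numbered 1 stood apart from those numbered 2 and 3 in each group, and the differences of the 10 genes, MYC, TXNIP, ARRDC4, MLXIP and MLXIPL were recomputed without them. Of 12 colon epithelium markers, 7 to 8 reached 1 CPM, the scale explained with the levels, in COLO320DM, where CDH1 and KRT19 did not, and 10 did in SW480. The summed level of these markers was 1620 to 1832 CPM in COLO320DM and 6635 to 9559 in SW480. Only 2 of 8 neuroendocrine markers reached that level in each line, although COLO320DM is known for such features. Leukocyte markers summed to 32.0 to 42.1 CPM in COLO320DM, where 2 of 6 passed, and to 1.00 to 1.73 in SW480. The part of these differences in the results below was not tested.

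Levels are given as CPM, counts per 1000000 counts of the library, scaled by TMM factors that correct for library composition, as mean ± SD over 3 libraries. Between genes, CPM per kilobase of all exons joined is used, here called the level per kilobase. Differences are log2 fold changes ± SE from edgeR's quasi-likelihood test over 23684 genes. A gene was called at a Benjamini-Hochberg adjusted p under 0.05.

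The network was expressed in both lines, and its order differed between them. In COLO320DM with empty vector, the levels per kilobase ran from MXD3 at 22.2 through MLX at 17.2, MXI1 at 13.7, MAX at 9.22, MXD4 at 8.48 and MXD1 at 7.45 to MNT at 2.80, MYCN at 2.32, MGA at 2.19 and MYCL at 0.652. The ranges of 3 libraries overlapped between the neighbours MAX and MXD4, MXD4 and MXD1, MNT and MYCN, and MYCN and MGA, so those steps are not ordered beyond their spread. In SW480 with empty vector, MXD3 at 42.5 and MLX at 14.2 again led, followed by MXD1 at 11.2, MAX at 10.9, MXI1 at 5.88, MNT at 3.22, MYCL at 2.78, MGA at 1.96, MXD4 at 1.37 and MYCN at 0.647. There MXD1 and MAX, MNT and MYCL, and MGA and MXD4 overlapped. MYCL thus stood last in COLO320DM and MYCN last in SW480, while MXD4 moved from the fifth place to the ninth. The leading place of MXD3 depends on reads it shares with a neighbour, described below.

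**Figure D1:**
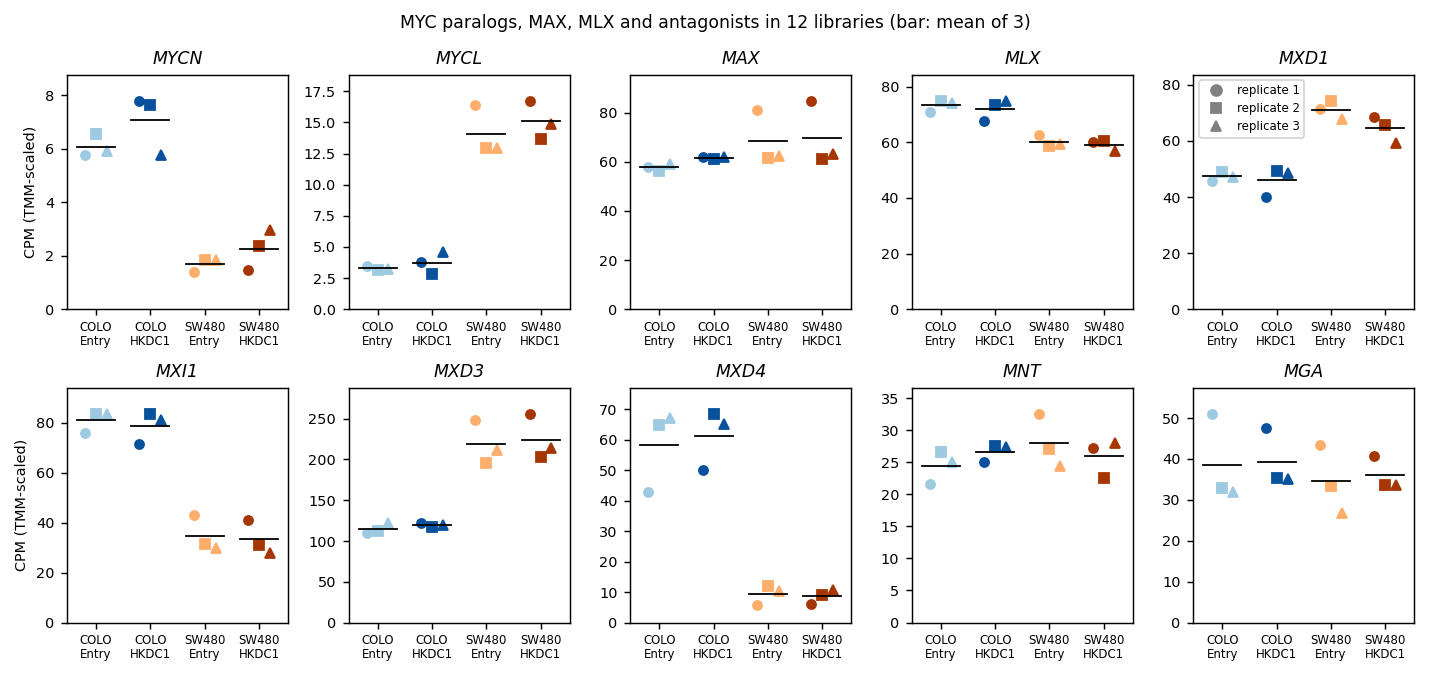
Level of each of the 10 genes in every library, in TMM-scaled CPM on a linear axis from 0, by line and plasmid, with symbols for the replicate number and a bar for the mean of 3 libraries. For MYCN, MYCL, MLX, MXD1, MXI1, MXD3 and MXD4 the 6 libraries of one line did not overlap those of the other, and for MAX, MNT and MGA they did.

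MYC outweighed its paralogs in both lines. Its level was 3354 ± 60.7 CPM in COLO320DM and 919 ± 15.5 CPM in SW480 with empty vector (SD, n = 3), a fall of 3.65-fold (log2 fold change -1.87 ± 0.09, edgeR adjusted p = 8.33e-10). Of the summed level per kilobase of MYC, MYCN and MYCL, MYC made up 99.6% in COLO320DM and 98.3% in SW480. The share of MYCN was 0.316% in COLO320DM and 0.317% in SW480, and that of MYCL 0.0888% and 1.37%. The 3 paralogs together stood at 79.7 ± 2.08 times the level per kilobase of MAX in COLO320DM and at 19.0 ± 2.98 times in SW480. These are transcript ratios, and protein was not measured.

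MYCN (ENSG00000134323, chr2:15940550-15947007, plus strand, 3 exonic segments), the paralog best known from neuroblastoma, was low in both lines and lower in SW480. In COLO320DM it had 245, 275 and 255 counts with empty vector (6.08 ± 0.418 CPM) and 320, 273 and 199 with the HKDC1 plasmid (7.07 ± 1.14 CPM). In SW480 it had 54, 67 and 84 counts with empty vector (1.69 ± 0.251 CPM) and 52, 97 and 103 with the HKDC1 plasmid (2.27 ± 0.741 CPM). Every COLO320DM library was above every SW480 library, from 5.76 to 7.81 CPM against 1.40 to 2.95. The difference of SW480 from COLO320DM was -1.84 ± 0.23 with empty vector (edgeR adjusted p = 8.45e-06) and -1.64 ± 0.23 with the HKDC1 plasmid (edgeR adjusted p = 2.24e-05). Its antisense partner MYCNOS shares 98 exonic bases and could account for at most 0.562% of MYCN counts in a group if its counts were even along its exons.

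MYCL (ENSG00000116990, chr1:39895426-39902256, minus strand, 3 exonic segments), first described in small cell lung cancer, went the other way. It had 149, 133 and 139 counts in COLO320DM with empty vector (3.30 ± 0.185 CPM) and 631, 474 and 589 in SW480 (14.1 ± 1.99 CPM). With the HKDC1 plasmid the counts were 154, 102 and 158 in COLO320DM and 589, 558 and 519 in SW480. The lines did not overlap, with 2.86 to 4.57 CPM in COLO320DM and 12.9 to 16.8 in SW480. MYCL was 4.26-fold higher in SW480 with empty vector (2.09 ± 0.17, edgeR adjusted p = 1.48e-07) and 4.05-fold higher with the HKDC1 plasmid (2.02 ± 0.17, edgeR adjusted p = 2.21e-07). The antisense gene MYCL-AS1 had 13 to 14 counts in COLO320DM and 56 to 73 in SW480 with empty vector and shares 226 exonic bases with MYCL. Without strand information, reads in the shared bases cannot be told apart. If even along its exons, MYCL-AS1 counts would supply at most 3.65% of MYCL counts in a group.

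Across the 10 genes, 3 were called higher in SW480 with empty vector (MYCL, MXD1 and MXD3), 4 lower (MYCN, MXD4, MXI1 and MLX) and 3 were not called (MAX, MNT and MGA). The HKDC1 libraries gave the same split. With the replicate number as a block MAX was called as well with empty vector, beside 76.3% of all genes. Of all genes tested, 71.6% were called between the lines with empty vector, 37.3% higher and 34.3% lower. The HKDC1 libraries gave 70.8%, of which 37.4% higher and 33.5% lower, so 7 of 10 is close to the background and says nothing particular of these genes. The same 7 had ranges of 6 and 6 libraries that did not overlap, which held for 65.3% of all genes. Without the libraries numbered 1 the same 7 were called in the same direction, beside 79.3% and 78.5% of all genes. The members' median difference with empty vector was 0.02, beside 0.04 over all genes.

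**Figure D2:**
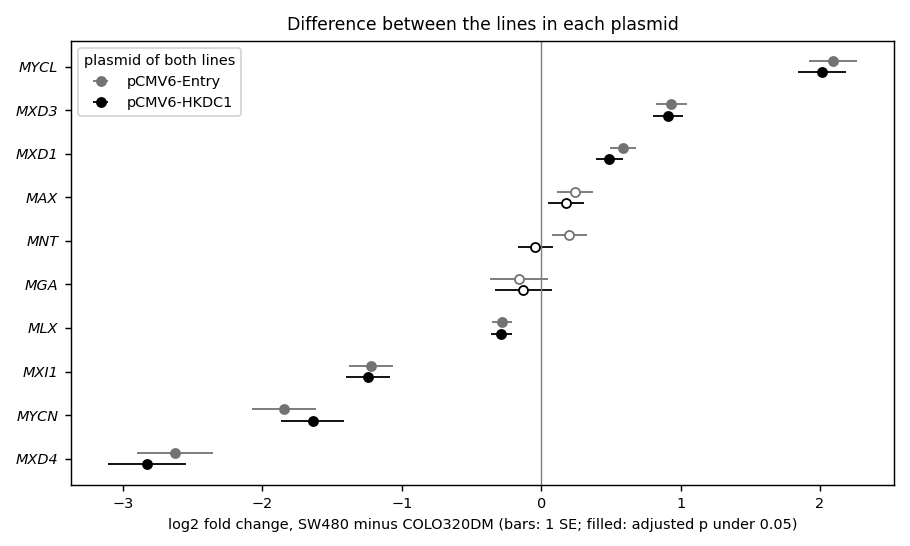
Difference between the lines for the 10 genes as log2 fold change of SW480 minus COLO320DM, in libraries with empty vector (grey) and with the HKDC1 plasmid (black), with bars of 1 SE and filled points for an adjusted p under 0.05. The order runs from MXD4 at -2.63 to MYCL at 2.09 with empty vector, and MAX, MNT and MGA have open points in each plasmid.

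MAX (ENSG00000125952, chr14:65006174-65102695, minus strand, 9 exonic segments), the shared dimer partner, was close in the lines. Its level was 57.7 ± 1.38 CPM in COLO320DM and 68.3 ± 10.96 in SW480 with empty vector, with counts of 2451, 2363 and 2553 against 3118, 2261 and 2832. The spread in SW480 came from replicate 1, at 80.9 CPM against 61.6 and 62.3 in the others, and the lines overlapped. The difference was 0.24 ± 0.13 with empty vector (edgeR adjusted p = 0.111) and 0.18 ± 0.13 with the HKDC1 plasmid (edgeR adjusted p = 0.239), and 0.11 and 0.0026 without the libraries numbered 1. With the replicate number as a block, MAX was called with empty vector (0.23 ± 0.10, edgeR adjusted p = 0.0438) and not with the HKDC1 plasmid (0.16 ± 0.10, edgeR adjusted p = 0.141). The opposite-strand genes FNTB and CHURC1-FNTB share 822 and 623 exonic bases with MAX. If even along their exons, their counts would supply at most 6.33% and 19.0% of MAX counts in a group.

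MLX (ENSG00000108788, chr17:42567068-42573239, plus strand, 4 exonic segments), the hub of the glucose-responsive arm, was slightly lower in SW480. It had 3004, 3137 and 3209 counts in COLO320DM with empty vector (73.3 ± 2.16 CPM) and 2419, 2158 and 2697 in SW480 (60.3 ± 2.17 CPM). The 6 libraries of SW480, at 57.0 to 62.8 CPM, were all below the 6 of COLO320DM, at 67.8 to 75.0. The difference was 1.22-fold (-0.28 ± 0.07, edgeR adjusted p = 0.00398) and nearly the same with the HKDC1 plasmid (-0.28 ± 0.07, edgeR adjusted p = 0.00378). PSMC3IP, on the opposite strand, shares 770 exonic bases with MLX, 18.1% of its exonic length.

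Of the MAX-binding repressors, MXD4 (ENSG00000123933, chr4:2247432-2262109, minus strand, 7 exonic segments) differed most. It had 1815, 2721 and 2905 counts in COLO320DM with empty vector (58.3 ± 13.5 CPM) and 224, 441 and 476 in SW480 (9.43 ± 3.23 CPM). With the HKDC1 plasmid it had 2055, 2449 and 2253 counts in COLO320DM and 212, 375 and 374 in SW480. The lowest COLO320DM library, at 42.8 CPM, stood well above the highest of SW480, at 12.01. MXD4 was 6.18-fold lower in SW480 with empty vector (-2.63 ± 0.27, edgeR adjusted p = 1.55e-06) and 7.09-fold lower with the HKDC1 plasmid (-2.83 ± 0.28, edgeR adjusted p = 8.8e-07). In each of the 4 groups the library numbered 1 was the lowest, and without these libraries the differences were -2.55 and -2.76.

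MXI1 (ENSG00000119950, chr10:110207605-110287365, plus strand, 22 exonic segments) was also lower in SW480. Its counts were 3224, 3504 and 3611 in COLO320DM with empty vector (81.0 ± 4.37 CPM) and 1654, 1154 and 1357 in SW480 (34.7 ± 7.13 CPM). The ranges, 71.6 to 83.6 CPM and 27.8 to 42.9, did not overlap. The fold was 2.33 (-1.22 ± 0.16, edgeR adjusted p = 1.09e-05) with empty vector and 2.36 (-1.24 ± 0.16, edgeR adjusted p = 1e-05) with the HKDC1 plasmid.

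MXD1 (ENSG00000059728, chr2:69897688-69942945, plus strand, 9 exonic segments), the founding MAD protein and a factor that rises on differentiation in many tissues, was higher in SW480. It had 1946, 2056 and 2035 counts in COLO320DM with empty vector (47.3 ± 1.58 CPM) and 2745, 2730 and 3088 in SW480 (71.2 ± 3.24 CPM). The lines did not overlap, with 40.1 to 49.3 CPM against 59.2 to 74.4. The fold was 1.50 (0.59 ± 0.09, edgeR adjusted p = 8.82e-05) with empty vector and 1.40 (0.49 ± 0.09, edgeR adjusted p = 0.000432) with the HKDC1 plasmid. Among MXD1, MXD4 and MXI1, the leading one by level per kilobase thus differed. MXI1 made up 46.4 ± 2.15% of their sum in COLO320DM with empty vector and MXD1 25.3 ± 1.96%, against 31.7 ± 5.10% and 60.8 ± 2.38% in SW480.

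MXD3 (ENSG00000213347, chr5:177301461-177312757, minus strand, 12 exonic segments), which differs from its relatives in being known for expression in proliferating cells, appeared as the most abundant member. It had 4651, 4728 and 5248 counts in COLO320DM with empty vector (114.6 ± 6.15 CPM) and 9574, 7205 and 9652 in SW480 (219 ± 26.7 CPM). As counted, it was 1.91-fold higher in SW480 (0.93 ± 0.11, edgeR adjusted p = 4.39e-06) and 1.88-fold higher with the HKDC1 plasmid (0.91 ± 0.11, edgeR adjusted p = 5.88e-06). Its exons share 1148 bases with PRELID1, a mitochondrial lipid transfer gene on the opposite strand, which is 62.4% of the exonic length of PRELID1 and 22.3% of that of MXD3. RAB24, on the same strand, shares another 926 bases.

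The MXD3 value therefore cannot be separated from its neighbour. Reads in exons of more than 1 gene were not left out of this table. The miRNA gene MIR4800, which lies wholly within an MXD4 exon, had 817 counts over the 12 libraries, and an antisense gene wholly within MNT exons had 3571. PRELID1 stood at 4472 to 4830 counts in COLO320DM and 8433 to 11286 in SW480 with empty vector. The ratio of MXD3 to PRELID1 counts stayed between 1.01 and 1.12 in the 6 COLO320DM libraries and between 0.835 and 0.858 in those of SW480. If PRELID1 counts were even along its exons, they would supply 58.9% of MXD3 counts in COLO320DM and 73.1% in SW480 with empty vector.

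With that share and the one of RAB24 taken off, MXD3 was left at 37.1 ± 2.84 CPM in COLO320DM and 48.7 ± 8.06 in SW480 with empty vector. The difference then fell to 0.39 (edgeR adjusted p = 0.0281), and with the HKDC1 plasmid to 0.29 (edgeR adjusted p = 0.0964), which ended the call. The same step left MXD1 at 0.72, MLX at -0.32 and MAX at 0.25 with empty vector, on the same side of the threshold as before. For MAX it took off the share of FNTB and not that of CHURC1-FNTB. The latter would supply 19.0% of MAX counts in COLO320DM and 13.5% in SW480 with empty vector, and its removal was not tested. The step was chosen after the counts had been seen and takes every PRELID1 count as its own, so it may take off too much from MXD3.

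**Figure D3:**
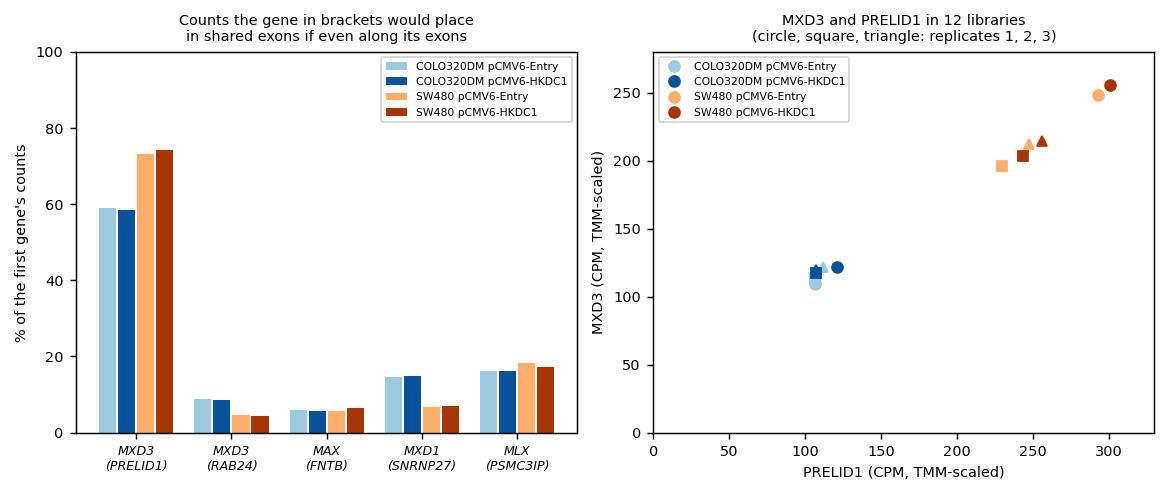
Left, the percentage per group of a member's counts that an overlapping coding gene (in brackets) would supply if even along its exons. The bars for MXD3 and PRELID1 run from 58.5% to 74.2% and those of the other pairs drawn reach at most 18.3%. CHURC1-FNTB, which is not drawn, would supply 13.5% to 19.0% of MAX counts. Right, MXD3 against PRELID1 in CPM for the 12 libraries, with colours for groups, where the libraries of each line lie together and SW480 is higher on both axes.

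MNT and MGA, the large MAX partners, did not differ detectably between the lines. MNT (ENSG00000070444, chr17:2384073-2401104, minus strand, 11 exonic segments), the most widely expressed MYC antagonist, had 914, 1113 and 1079 counts in COLO320DM with empty vector (24.4 ± 2.55 CPM) and 1254, 991 and 1113 in SW480 (28.0 ± 4.13 CPM). Its difference was 0.20 ± 0.13 (edgeR adjusted p = 0.168) with empty vector and -0.04 ± 0.13 (edgeR adjusted p = 0.785) with the HKDC1 plasmid. Some 28.1% to 30.5% of MNT counts per group could lie in the antisense gene ENSG00000262456, whose 1065 exonic bases are all within MNT exons.

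MGA (ENSG00000174197, chr15:41621224-41773081, plus strand, 27 exonic segments) had 2164, 1379 and 1377 counts in COLO320DM with empty vector (38.6 ± 10.8 CPM) and 1675, 1225 and 1221 in SW480 (34.6 ± 8.37 CPM). The library numbered 1 was the highest in every group, and the lines overlapped. The difference was -0.16 ± 0.21 (edgeR adjusted p = 0.501) with empty vector and -0.13 ± 0.21 (edgeR adjusted p = 0.59) with the HKDC1 plasmid, and -0.10 and -0.08 without the libraries numbered 1. No library had fewer than 1173 MGA counts, and whether spread or depth limited the comparison was not tested.

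The HKDC1 plasmid changed none of the 10 genes detectably in either line. In COLO320DM 2 genes of 23684 were called (0.00844%) and in SW480 3 (0.0127%), with 312 and 356 at an unadjusted p under 0.05, and every member had an adjusted p of 1 in edgeR. The members' fold changes ran from -0.04 to 0.22 in COLO320DM, where 7 of 10 were above 0, and from -0.14 to 0.42 in SW480, where 5 were. No member had an unadjusted p under 0.05 in these comparisons. A 95% interval from the SE and 8 residual degrees of freedom stayed within -0.51 and 0.71 for the 10 genes in COLO320DM. In SW480 it stayed within -0.75 and 0.96. MXD4 set the lower and MYCN the upper bound in each line. Intervals of other members were narrower, as for MLX at -0.19 to 0.15 in COLO320DM and -0.20 to 0.14 in SW480. Changes inside a member's own interval were not excluded.

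MYCN had the largest estimate in each line. It was 0.22 ± 0.21 in COLO320DM, with replicate 3 going down by 0.03 and replicates 1 and 2 up by 0.40 and 0.21. In SW480 it was 0.42 ± 0.24, higher with the HKDC1 plasmid in 3 of 3 pairs of libraries with the same number, by 0.06, 0.31 and 0.56, on 52 to 103 counts. Leaving out 1 library at a time, the MYCN estimate ran from 0.14 to 0.35 in COLO320DM and from 0.18 to 0.64 in SW480. The groups overlapped in both lines. MAX was the 1 member whose groups did not overlap, in COLO320DM, at 61.1 to 61.9 CPM with the HKDC1 plasmid against 56.3 to 59.1 with empty vector. That held for 7.74% of all genes in COLO320DM, and in SW480 for 4.45% of genes and no member. The fitted MAX difference there was 0.09 ± 0.13.

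The plasmid effect did not differ detectably between the lines for any member either. The test of that difference called 2 genes (0.00844%) and no member, whose values ran from -0.24 for MNT to 0.20 for MYCN. Same-numbered libraries of a line deviated together, and with the replicate number as a block 18 genes (0.076%) were called in COLO320DM, 180 (0.76%) in SW480 and 10 (0.0422%) for the difference, still with no member. The lowest adjusted p of a member in that fit was 0.946 in COLO320DM and 0.358 in SW480, the latter for MYCN at 0.41 ± 0.17. Without the libraries numbered 1, where 8 genes (0.0337%) were called in COLO320DM, no member was called either, and MYCN was at 0.51 in SW480 (edgeR adjusted p = 0.179).

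**Figure D4:**
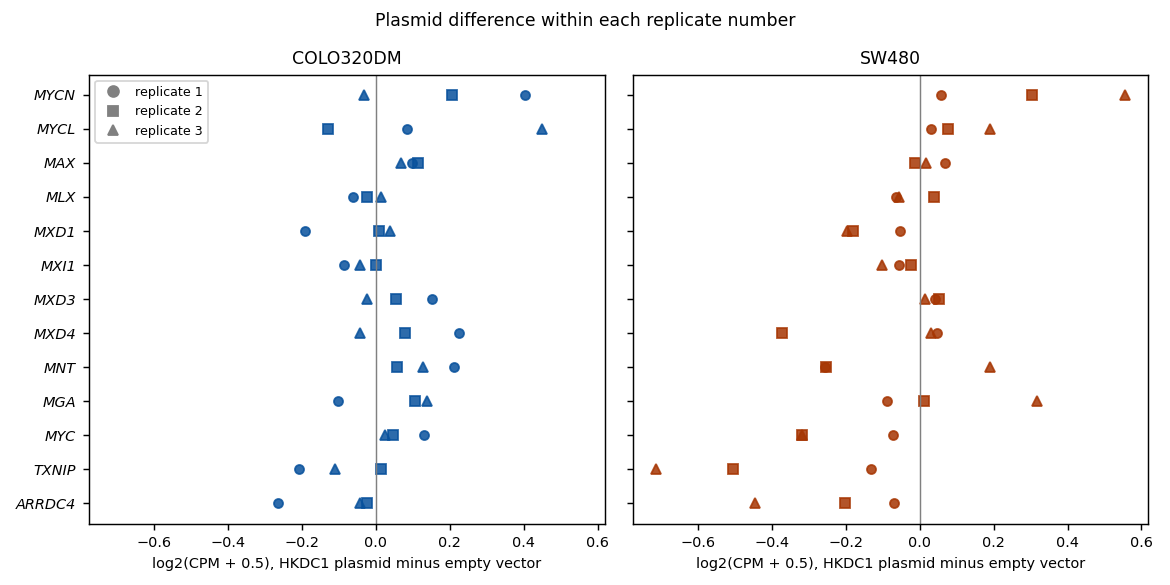
Difference of HKDC1 plasmid minus empty vector within each replicate number, in log2 of CPM plus 0.5, for the 10 genes and MYC, TXNIP and ARRDC4, with 1 point per pair of libraries in COLO320DM (left) and SW480 (right). In SW480 the 3 points of MYCN are above 0, at 0.06, 0.31 and 0.56, and the 3 points of MYC, TXNIP and ARRDC4 are below 0, farthest for TXNIP in replicate 3 at -0.71. In COLO320DM the 3 points of ARRDC4 are also below 0, and the 3 of MYC are above 0.

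Of the partners of MLX, MLXIPL differed between the lines, while MLXIP was not called in the main fit. MLXIP, or MondoA, stood at 71.5 ± 2.57 CPM in COLO320DM and 68.0 ± 6.33 in SW480 with empty vector (-0.07 ± 0.09, edgeR adjusted p = 0.481). Its difference with the HKDC1 plasmid was -0.19 ± 0.09 (edgeR adjusted p = 0.0767). Without the libraries numbered 1, MLXIP was called lower in SW480 with empty vector (-0.16, edgeR adjusted p = 0.0391) and with the HKDC1 plasmid (-0.26, edgeR adjusted p = 0.00128). Of all genes, 79.3% and 78.5% were called there. MLXIPL, or ChREBP, had 67, 104 and 113 counts in COLO320DM and 638, 929 and 954 in SW480, so that it was 9.40-fold higher there (3.23 ± 0.26, edgeR adjusted p = 1.28e-07). The target ARRDC4 was 2.99-fold higher in SW480, at 39.3 ± 4.40 against 13.1 ± 0.898 CPM (1.58 ± 0.11, edgeR adjusted p = 3.59e-08). KLF10, a transcriptional regulator that ChREBP is known to induce, stood at 95.1 ± 5.03 CPM in SW480 and 16.3 ± 1.07 in COLO320DM (2.54 ± 0.12, edgeR adjusted p = 4.46e-10). PKLR, the liver pyruvate kinase and a classic ChREBP target, was lower in SW480 at 0.831 ± 0.0345 against 1.88 ± 0.418 CPM (-1.18 ± 0.26, edgeR adjusted p = 0.00102).

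TXNIP was higher in SW480 with empty vector, and its call varied with the libraries kept. It had 5837, 6206 and 6318 counts in COLO320DM and 5637, 9307 and 11234 in SW480, so that replicate 1 of SW480 was at the level of the other line. The difference was 0.58 ± 0.18 (edgeR adjusted p = 0.00983), and it was no longer called without replicate 2 (0.46, edgeR adjusted p = 0.0521) or replicate 3 (0.48, edgeR adjusted p = 0.0502) of SW480 with empty vector. With the HKDC1 plasmid it was 0.20 ± 0.18 (edgeR adjusted p = 0.338). Without the libraries numbered 1, TXNIP was called with empty vector (0.78, edgeR adjusted p = 2.4e-12) and with the HKDC1 plasmid (0.20, edgeR adjusted p = 0.00809). Of all genes, 79.3% and 78.5% were called there. Among 16 recomputed fits, 14 called TXNIP with empty vector and 1 with the HKDC1 plasmid. Of the 6 genes of this list 4 were called higher and 1 lower with empty vector, and the HKDC1 libraries gave 3 and 1, beside 71.6% and 70.8% of all genes called in either direction. Their medians were 1.08 and 0.82, beside 0.04 and 0.05 over all genes.

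In SW480 the same 6 genes all had fold changes below 0 with the HKDC1 plasmid, with a median of -0.20 beside 0.00 over all genes, and none was called in the fit without a block. TXNIP had 4691, 7304 and 5257 counts with the HKDC1 plasmid, which overlapped the empty vector libraries (-0.48 ± 0.18, edgeR adjusted p = 1). With the replicate block TXNIP was called lower (-0.45 ± 0.08, edgeR adjusted p = 0.00647), in 3 of 3 pairs by 0.13, 0.50 and 0.71. MYC was called lower there too (-0.24 ± 0.06, edgeR adjusted p = 0.0284), in 3 of 3 pairs. Its groups, at 734 to 863 CPM against 907 to 936.5, did not overlap, which held for 4.45% of all genes in SW480. In COLO320DM the groups of MYC did not overlap either but lay the other way, at 3468 to 3599 CPM with the HKDC1 plasmid and 3287 to 3406 with empty vector (0.07 ± 0.09, edgeR adjusted p = 1). ARRDC4 was lower in 3 of 3 pairs in SW480 without a call (-0.24 ± 0.08, edgeR adjusted p = 0.154), and its groups overlapped there. In COLO320DM it was lower in 3 of 3 pairs too, at -0.26, -0.02 and -0.04, without a call (-0.12 ± 0.09, edgeR adjusted p = 0.957). Its groups did not overlap in COLO320DM, which held for 7.74% of all genes there.

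The calls varied with the libraries kept. Without the libraries numbered 1 and without a block, 720 genes (3.03%) were called for the plasmid in SW480, among them TXNIP (-0.62, edgeR adjusted p = 3.23e-07), MYC (-0.34, edgeR adjusted p = 0.000137) and ARRDC4 (-0.33, edgeR adjusted p = 0.0217), and again no member of the network. That is 2 libraries against 2. With the block and without pair 2 or pair 3, TXNIP was at -0.44 and -0.33 (edgeR adjusted p = 0.439 and 0.0587) and MYC at -0.21 and -0.20 (edgeR adjusted p = 0.79 and 0.214). These calls were thus lost while the fold changes stayed below 0. Without pair 1, TXNIP (-0.63, edgeR adjusted p = 5.28e-09), MYC (-0.34, edgeR adjusted p = 0.00155) and ARRDC4 (-0.34, edgeR adjusted p = 0.0296) were called. The calls thus depended on which pair was left out. The test of whether the lines differed in this effect gave -0.39 for TXNIP and -0.30 for MYC (edgeR adjusted p = 1 for each), and -0.35 and -0.30 with the block (edgeR adjusted p = 0.42 and 0.189). Without the libraries numbered 1 it called 75 genes (0.316%), with TXNIP and MYC among them, at -0.58 (edgeR adjusted p = 0.00135) and -0.37 (edgeR adjusted p = 0.0126).

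The members also moved between replicates within a group. The library numbered 1 was lower than the mean of the other libraries of its group for MXD4 in all 4 groups, by 0.62 and 0.41 on the log2 scale in COLO320DM and 0.89 and 0.67 in SW480, in the order of empty vector and HKDC1 plasmid. For MGA it was higher, by 0.65 and 0.42 in COLO320DM and 0.53 and 0.28 in SW480. MXI1 was higher by 0.48 and 0.49 and MAX by 0.38 and 0.45 in SW480, and neither was in COLO320DM, where MAX was at 0.00 and 0.01 and MXI1 at -0.14 and -0.20. MYCN, on low counts, was lower by 0.30 and 0.67 in SW480 and was at -0.10 and 0.22 in COLO320DM. Several of these shifts exceeded every member's plasmid difference.

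Among 99 genes of the network's pathway lists and the members, the pattern over the 12 libraries after removal of each line's mean was most like that of CDK9 for MXD3 and of MXD3 for MAX (Pearson r of 0.942 each), of MLXIP for MNT (0.94), of KAT5 for MXD4 (0.934), of CCND2 for MXI1 (0.907) and of LDHA for MGA (0.877). MXD1 and MLX were each other's closest match (0.755), SHMT1 was that of MYCL (0.751) and SIN3B that of MYCN (0.684). These values describe libraries that share the offset of replicate 1. Within COLO320DM and SW480, r was 0.648 and 0.988 for MXD3 with CDK9 and 0.736 and 0.971 for MAX with MXD3. For MYCN with SIN3B it was 0.299 and 0.77. It was higher in COLO320DM for MXD1 with MLX (0.93 and 0.553) and MGA with LDHA (0.937 and 0.837). The MXD3 pattern includes reads shared with PRELID1.

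The complexes through which the antagonists act held genes that differed in each direction, at shares to be read against the 71.6% of all genes called with empty vector, 37.3% higher and 34.3% lower. Of 16 SIN3 corepressor genes, 5 were called higher and 6 lower in SW480 with empty vector, and in the HKDC1 libraries 6 and 4, close to that background. SAP130, a SIN3 scaffold subunit, fell from 167 ± 14.5 to 42.6 ± 5.00 CPM (-1.97 ± 0.12, edgeR adjusted p = 4.72e-09), and ING1, a chromatin reader of the complex, was lower by 0.84 on the log2 scale. BRMS1 (1.39 ± 0.09, edgeR adjusted p = 2.05e-08) and SIN3B (1.27 ± 0.13, edgeR adjusted p = 1.19e-06) rose. The list's median was -0.13.

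Of 12 PRC1.6 subunits around MGA, 5 were called higher and 5 lower with empty vector, where 37.3% and 34.3% of all genes were, so the counts show nothing particular to the complex. CBX3, the HP1 gamma protein, rose from 320 ± 34.8 to 552 ± 56.2 CPM and E2F6, which targets the complex to DNA, from 35.9 ± 2.83 to 57.8 ± 5.15. TFDP1, the partner of E2F6, fell from 296 ± 34.4 to 178 ± 43.1 CPM. PCGF6, the subunit that defines the complex, fell from 28.7 ± 4.60 to 20.2 ± 4.02 with empty vector (edgeR adjusted p = 0.024) and was not called with the HKDC1 plasmid (-0.24, edgeR adjusted p = 0.267). Of 12 germline genes this complex is known to silence, 10 passed the filter on low counts. TEX11 and MAEL were close to 0 in SW480 and passed through COLO320DM, so no count of calls is given for this list. ZCWPW1 was at 7.36 ± 2.11 CPM in SW480 and 3.44 ± 0.131 in COLO320DM, and MAEL at 0.0237 ± 0.0222 and 0.532 ± 0.125. TEX11 had no counts in SW480 with empty vector and was at 0.407 ± 0.252 CPM in COLO320DM.

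Of 14 MYC cofactors, 5 were called higher and 4 lower in SW480 with empty vector, and these and the next counts stand beside 37.3% and 34.3% of all genes, from which they are not shown to differ. TRRAP, the scaffold of histone acetyltransferase complexes, rose from 47.7 ± 4.08 to 144.8 ± 19.5 CPM and PAF1 rose by 1.30 ± 0.11 on the log2 scale, while the elongation kinase CDK9 was at -0.80 ± 0.13 and EP400 at -0.73 ± 0.16. Of 13 genes of MYC protein turnover, 6 rose and 4 fell, among the latter SKP2, a ubiquitin ligase subunit, by 1.15 on the log2 scale from 99.9 ± 7.93 CPM, and GSK3B, a MYC kinase, from 91.1 ± 4.80 to 59.1 ± 6.09. PPP2R5A and STUB1 were higher by 0.81 and 0.54. Of 16 known E-box target genes, 5 rose and 3 fell, with CAD at 0.95 and FBL at 0.87 at one end and SHMT1 at -0.90 and TFAP4 at -0.55 at the other.

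With the HKDC1 plasmid no gene of the SIN3, PRC1.6, germline, cofactor, turnover or E-box target lists was called in either line, with or without the replicate block. Without the libraries numbered 1, 1 of them was called, ZBTB17 of the cofactor list in SW480 (-0.29), beside 3.03% of all genes. That count shows nothing particular to these lists. The product of ZBTB17, MIZ1, is the partner through which MYC is known to repress. The medians of these 6 lists lay between -0.10 and 0.06 in COLO320DM and between -0.01 and 0.02 in SW480.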

How the data were processed

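Counts per gene in 12 libraries were deposited by the authors as 1 table of whole numbers with exon positions. Of tools and builds, HISAT2 2.1.0, limma and GRCh38 are named per the submitters' processing notes, without their roles; the read counter, annotation release and strand setting are not given in the sources used here, and the labels' protocols describe poly-A selection with no step that marks strand. Symbols came from reference tables (60295 of 60623 genes), exon overlaps from the deposited exon positions, transcript lengths from GENCODE 29, and promoters from RefSeq.

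The members and lists were chosen with earlier results of these data known. All 10 members, MYC, TXNIP, ARRDC4, MLXIP and MLXIPL are named throughout; from the other lists, genes called for the plasmid and, between the lines with empty vector, up to 2 called genes in each direction with the largest fold. Of the lists' genes, 1 was not matched in the table.

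All 12 libraries (33790733 to 45451279 counts) entered 1 fit of 4 group means (edgeR 4.0.16 under R 4.3.3; filterByExpr with a minimum count of 10 and total of 15, TMM, robust quasi-likelihood test), which left 23684 genes and 8 residual degrees of freedom. SE is the log2 fold change over the root of the F statistic. Scripts were tested on simulated data. Alternatives were other scalings, no filter, DESeq2 1.42.0, limma-voom 3.58.1, the compared groups alone, libraries left out, and the replicate number as a block.

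The labels number replicates 1 to 3 in each group. Within a line, deviations of same-numbered libraries from their group means correlated at 0.260 to 0.871 over 15393 genes, each over 0.1, so the numbers were taken to pair them, from the data and not the labels. Libraries with different numbers correlated at -0.778 to 0.690, and replicates 2 and 3 of a line may not be independent. Empty-vector replicate 3 correlated more with HKDC1 replicate 2 than with HKDC1 replicate 3. The values were 0.690 against 0.500 in SW480 and 0.281 against 0.260 in COLO320DM. So the numbers set replicate 1 apart, but how replicates 2 and 3 pair is not settled. The blocked fits and the counts of pairs take the numbers as given. Between the lines, same-numbered libraries correlated at 0.157 to 0.227 with empty vector, each over 0.1. With the HKDC1 plasmid they correlated at 0.0552 to 0.194, so not every pair passed. Replicates 2 and 3 with empty vector also passed 0.1 across numbers, at 0.137 and 0.103. That bar therefore does not settle pairs between the lines, and a block common to them takes the numbers as given.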

Additional observations from a re-analysis of the deposited data

How the results depend on the processing

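Of the 320 differences between the lines recomputed for the 10 genes, 315 kept their direction and side of the threshold. Besides the MXD3 call lost with the shared reads taken off and 3 changes of sign for MGA and MNT, which were never called, MAX with empty vector passed at 0.23 (edgeR adjusted p = 0.0438) with a replicate block common to the lines. Of 590 recomputed plasmid effects of the members none was called, with lowest adjusted p of 0.915 in COLO320DM, 0.104 in SW480 and 0.513 for the difference, and 51 changed sign. With HKDC1 and its antisense gene AL596223.2 left out, 0 genes were called in COLO320DM, 1 in SW480 and 0 for the difference. CPM over library totals moved 5 of 40 levels, and the longest transcript as length moved 8 of 40 ranks.

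With the replicate number as a block, 18, 180 and 10 genes were called. With pair 1, 2 or 3 also left out these were 9, 18 and 7 in COLO320DM and 538, 13 and 49 in SW480. Signs then changed without pair 1 for MXD1 in COLO320DM (0.0226) and MAX in SW480 (-0.0161), without pair 2 for MLXIPL in COLO320DM (-0.10), MXD4 (0.027) and MLXIP (0.035) in SW480, and without pair 3 for MYCL (-0.0183) and MGA (-0.0016) in COLO320DM and MGA in SW480 (-0.0428). Without the libraries numbered 1, 8, 720 and 75 genes were called, and MXD1 in COLO320DM (0.0262) and MAX in SW480 (-0.0163) changed sign. The blocked fits per pair, those without replicate 1 and the removal of shared reads were chosen after seeing the data.

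Unscaled library totals turned MLXIPL in COLO320DM (-0.0093) and the difference of MLX (0.0006). Taking off shared reads turned MXD3 in SW480 (-0.0089) and the difference of MLX (0.0165). Leaving out 1 library at a time, SW480 gave 3 to 5 called genes, and values on both sides of 0 came only from genes that were not called. In COLO320DM these were MXD4 (-0.11 to 0.20), MLXIPL (-0.19 to 0.22), MGA (-0.13 to 0.28), MXD1 (-0.0884 to 0.0442), MXI1 (-0.0868 to 0.0211) and MLX (-0.0487 to 0.0176). In SW480 they were MXI1 (-0.24 to 0.10), MLXIP (-0.11 to 0.0122), MAX (-0.14 to 0.15), MXD3 (-0.0704 to 0.12), MXD4 (-0.40 to 0.072) and MGA (-0.10 to 0.24). For the difference of the effects they were MXD3 (-0.13 to 0.0524), MXI1 (-0.20 to 0.14), MGA (-0.22 to 0.21), MLX (-0.0455 to 0.0208), MYCL (-0.25 to 0.0767), MAX (-0.24 to 0.0515) and MYCN (-0.0441 to 0.42). Between the lines they were MGA, at -0.35 to 0.092 with empty vector and -0.24 to 0.0286 with the HKDC1 plasmid, and MNT with the HKDC1 plasmid, at -0.11 to 0.0328. The cause was not tested in any of these.

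MYCN in SW480 rested on 52 to 103 counts a library, and every comparison on 3 libraries a group. The widest interval of a plasmid effect in SW480 was that of MXD4, -0.75 to 0.50.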
